A study of Mus musculus with 6 samples.

Results

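The genes described here code for proteins that take up long-chain fatty acids or carry them, or their CoA esters, inside the cell. They are the 9 genes Fabp1, Fabp2, Fabp4, Fabp5, Cd36, Slc27a1, Slc27a2, Slc27a4 and Dbi, found by matching the Ensembl identifiers of the organoid RNA-Seq table to GENCODE gene symbols. All 9 were among the 55416 genes of the table, and 8 of them, all but Fabp4, were among the 18459 genes with enough reads to test. A long-chain fatty acid that reaches a cell is taken in with the help of membrane proteins such as CD36 and the fatty acid transport proteins of the SLC27 family, which also join it to CoA. Inside the cell it is bound by a small cytosolic fatty acid binding protein (FABP), while acyl-CoA esters are bound by the product of Dbi. In the small intestine these proteins serve dietary fat absorption, and FABP1 and FABP2 are abundant in the absorptive enterocytes of the villus. Fabp1 and Cd36 are long known as targets of the peroxisome proliferator-activated receptors (PPARs), nuclear receptors that bind fatty acids.

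Organoids were grown from small intestinal crypts (duodenum and jejunum) of 3 C57BL/6 mice with the genotype label WT, and each mouse gave an LDL-treated and a PBS-treated culture, so that there were 6 libraries of total RNA depleted of ribosomal RNA, 3 per treatment. LDL was given at 50 μg/ml, PBS was the vehicle control, and all cultures were kept for 5 days in the same growth medium, which supports stem cells and progenitors as well as differentiated cells. The age of the mice was not given in the sources used here. The identifier of the animal of the third replicate does not begin with the letters of its genotype label, unlike those of the other mice, so values are also given without mouse 3. Values are normalized counts, reads on a gene over a size factor for the library, and 1 read was worth 0.814 to 1.24 normalized counts at 22061545 to 31073360 reads on genes per library.

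The cultures were epithelial by their markers. The 5 epithelial markers summed to between 67709.7 and 101259 normalized counts in a library, whereas the 6 endothelial markers summed to 16.4 to 40.2, the 6 fibroblast and smooth muscle markers to 18.2 to 70.7 and the 6 leukocyte markers to 225 to 301. The 5 adipocyte markers summed to 4.97 to 9.76, and Adipoq, which defines adipocytes, was at 0 in all 6 libraries. These ranges bear on Cd36, Fabp4 and Fabp5, which are also made by adipocytes, endothelium and macrophages. Gata4, a transcription factor of the proximal small intestine, had 2608 to 3820.4 normalized counts, and Fabp6, the ileal bile acid binding protein, had 3.06 to 13.7. Slc10a2, the ileal bile acid transporter, had 171, 40.01 and 125 with LDL and 53.1, 36.04 and 33.4 with PBS in mice 1 to 3. It was higher with LDL in all 3 mice with overlapping groups (log2 fold change 1.23, limma, adjusted p = 0.233, and 0.0431 with the mouse as a block), and its part in the differences described next was not tested. The sum of 12 absorptive enterocyte markers was 82497 to 124732 with LDL and 68663 to 114423 with PBS, and was highest in mouse 2 under both treatments. Since these are bulk libraries, fewer cells of a type and less RNA per cell cannot be told apart.

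The 250 bases before the transcription start of Fabp1 and Fabp2 are shown because these are the FABP genes with the highest levels in the organoids and their folds with LDL, given further on, lay far apart in every mouse. They were read on the plus strand of GRCm39 with the canonical GENCODE transcript as the start, at chr6:71176559-71176808 for Fabp1 and chr3:122688471-122688720 for Fabp2. In capitals is a match to DR1, a direct repeat of the hexamer AGGTCA with a spacer of 1 base, the kind of element that PPARs bind together with RXR.
Fabp1: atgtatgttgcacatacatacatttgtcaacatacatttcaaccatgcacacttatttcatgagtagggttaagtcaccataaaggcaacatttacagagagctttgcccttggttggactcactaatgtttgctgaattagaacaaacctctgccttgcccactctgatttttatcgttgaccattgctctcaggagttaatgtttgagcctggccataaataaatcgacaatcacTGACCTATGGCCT
Fabp2: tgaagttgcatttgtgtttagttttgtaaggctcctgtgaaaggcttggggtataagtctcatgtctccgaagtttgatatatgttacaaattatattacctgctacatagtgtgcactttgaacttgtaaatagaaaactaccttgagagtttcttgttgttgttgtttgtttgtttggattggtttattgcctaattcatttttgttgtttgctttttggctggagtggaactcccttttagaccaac
The Fabp1 match, TGACCTATGGCCT, lay on the reverse strand from base 13 to base 1 before the start, differed from the repeat at 1 base and overlapped an exact match to AGGTCA at bases 13 to 8. The Fabp2 window held neither. Both strands of the windows of all 21770 protein-coding genes were searched with the same rules. DR1 with at most 2 mismatches was found in 2.91% of them and in 1 of the 9 genes described here, and AGGTCA in 13.1% and in 2 of the 9, Fabp1 and Fabp4. The TATA box letters TATAAA were found in 11.9% and CAAAGTCCA, a single exact form of the HNF4 motif, in 0.372% of all windows, and both in 0 of the 9. Other forms of the HNF4 motif were not searched for as such. A match is a run of letters and not a measured binding site, and it does not tell which factor binds. The data hold no measurement of binding, by PPARs or by any other factor.

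Fabp1, the liver-type FABP, which is also abundant in the proximal intestine, showed the largest difference of the 9 genes. Its gene lies at chr6:71176809-71182016 on the plus strand (ENSMUSG00000054422). With LDL it had 26669.5 normalized counts in mouse 1, 69615 in mouse 2 and 36032 in mouse 3, and with PBS 4197, 10487 and 5127 in the same order. The lowest LDL-treated library lay above the highest PBS-treated library. The means were 44106 ± 22582 with LDL and 6604 ± 3395 with PBS (SD, n = 3 mice each). Within a mouse LDL stood over PBS by 6.36-fold in mouse 1, 6.64-fold in mouse 2 and 7.03-fold in mouse 3, so that the mice differed by far more in their level of Fabp1 than in its fold difference. Fabp1 rose by a log2 fold change of 2.74 (SE 0.42, limma, adjusted p = 0.0285 by Benjamini-Hochberg over all genes tested). Entering the mouse as a block left the log2 fold change at 2.74 and lowered the SE to 0.088 (limma, adjusted p = 1.03e-05). Both count models with no block called it too (DESeq2, adjusted p = 0.00024; edgeR, adjusted p = 0.0348). Without mouse 3 the log2 fold change was 2.699, and the fit with no block, left with 2 mice, no longer passed the threshold (limma, adjusted p = 0.601). The call of the fit with no block was also lost when 1 library was left out, namely the LDL-treated library of mouse 3 (2.82, adjusted p = 0.149), the PBS-treated library of mouse 1 (2.47, adjusted p = 0.134) or the PBS-treated library of mouse 3 (2.61, adjusted p = 0.125, all limma).

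Reads on Fabp1 made up 0.0912%, 0.269% and 0.148% of all reads on genes in the LDL-treated libraries of mice 1 to 3, against 0.0169%, 0.0383% and 0.0203% with PBS. The widest of the 95% Wilson intervals, which cover counting error only, ran from 0.267% to 0.271%, so counting error was small beside the spread among mice. Of all reads on the 9 genes, Fabp1 held 71.6%, 76.0% and 72.7% with LDL and 28.6%, 40.3% and 31.1% with PBS. The plot of normalized counts by mouse shows this beside the other 8 genes.

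**Figure D1:**
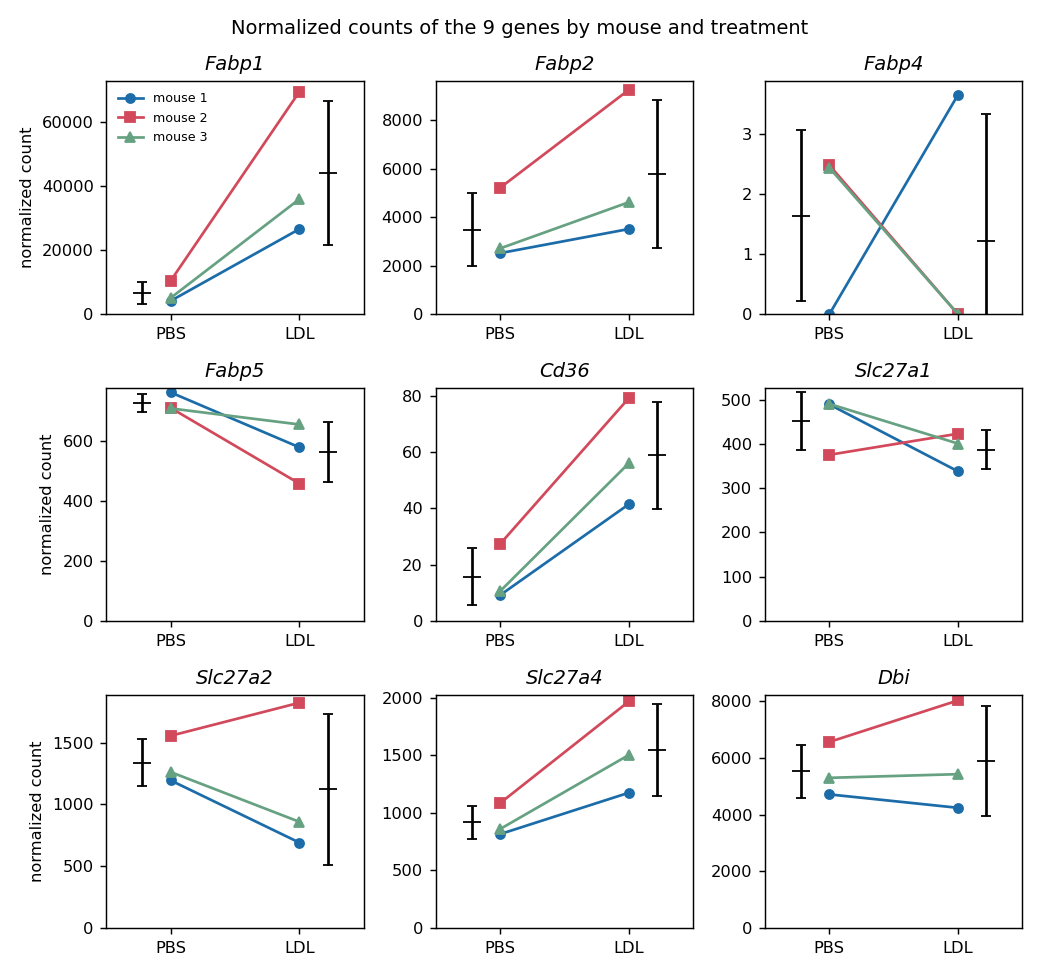
Normalized counts (vertical axes, linear, each from 0) of the 9 genes under PBS and LDL. Points are libraries, lines join the libraries of a mouse, and black bars give the mean ± SD of 3 mice beside each treatment, running below 0 and out of the panel for Fabp4 with LDL. The lines of Fabp1, Cd36 and Slc27a4 run upward in all 3 mice with no overlap between treatments, those of Fabp5 run downward, and the 6 values of Fabp4 rest on at most 3 reads each.

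Fabp2, the intestinal-type FABP of the enterocyte (chr3:122688721-122693155, plus strand), was higher with LDL in every mouse, but by less than the mice differed among themselves. It had 3515, 9252 and 4619.8 normalized counts with LDL in mice 1 to 3 and 2520.4, 5212 and 2714 with PBS. The groups overlapped, since PBS-treated organoids of mouse 2 exceeded the LDL-treated organoids of mice 1 and 3. The folds within a mouse were 1.39, 1.78 and 1.70, and the log2 fold change was 0.69 (SE 0.39, limma, adjusted p = 0.376). With the mouse as a block Fabp2 passed the threshold (SE 0.090, limma, adjusted p = 0.0029). Its exons share 221 bases with those of 4933405D12Rik on the opposite strand, which had a mean of 7.30 normalized counts.

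Fabp5, the epidermal-type FABP (chr3:10077602-10081674, plus strand), was the only one of the 8 tested genes that was lower with LDL in all 3 mice. Its normalized counts were 579, 458 and 656 with LDL and 763, 711 and 709 with PBS. Every LDL-treated library lay below every PBS-treated library, and the LDL-treated library of mouse 3 came nearest to the PBS-treated ones. LDL over PBS was 0.760, 0.645 and 0.924 within mice 1 to 3. The log2 fold change of -0.38 (SE 0.14) did not pass without the block (limma, adjusted p = 0.191) or with it (limma, adjusted p = 0.0582). The reads of Fabp5 are uncertain to the extent that they could be split with its processed pseudogenes Gm6166, 98.3% identical over 409 bases with mean normalized counts of 34.1 with LDL and 50.5 with PBS, and Gm14328, 97.3% identical over 408 bases with 7.81 and 7.28.

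Fabp4, the adipocyte FABP (chr3:10268785-10273737, minus strand), was close to the limit of detection. It had 3 reads in the LDL-treated library of mouse 1 and 0 in the other LDL-treated libraries, and 0, 2 and 3 reads in the PBS-treated libraries of mice 1 to 3. A count of 0 allows up to 3 reads. No difference was detectable at this depth, and Fabp4 was not tested.

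Dbi codes for the acyl-CoA binding protein, which binds acyl-CoA esters rather than free fatty acids (chr1:120041010-120048808, minus strand). Its normalized counts were 4236, 8025 and 5423 with LDL and 4709, 6559 and 5294 with PBS. The order of the mice was the same under both treatments, and the treatments overlapped. LDL over PBS was 0.900 in mouse 1, 1.224 in mouse 2 and 1.02 in mouse 3, with a log2 fold change of 0.06 (SE 0.23, limma, adjusted p = 0.926), and 0.745 was the adjusted p of limma with the mouse as a block. The sign rested on single libraries, as the log2 fold change was -0.19 when LDL in mouse 2 was left out and -0.05 when PBS in mouse 1 was left out. Exons of Dbi share 296 bases with 3110009E18Rik on the opposite strand (mean of 41.9 normalized counts).

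Cd36 codes for a scavenger receptor that binds fatty acids and lipoproteins at the cell surface (chr5:17986432-18094067, minus strand). It was a low transcript in these organoids, with 34, 87 and 67 reads in the LDL-treated libraries of mice 1 to 3 and 9, 22 and 13 in the PBS-treated libraries. In normalized counts this was 41.5, 79.1 and 56.0 with LDL and 9.19, 27.3 and 10.6 with PBS. The treatments did not overlap. The means were 58.9 ± 19.0 and 15.7 ± 10.1 (SD, n = 3 mice each), and the folds within a mouse were 4.51, 2.89 and 5.29. The log2 fold change of 1.95 (SE 0.44) missed the threshold without the block (limma, adjusted p = 0.0780) and passed with it (SE 0.27, limma, adjusted p = 0.0033). Among the count models with no block, DESeq2 called Cd36 (adjusted p = 0.0020) and edgeR did not (adjusted p = 0.0724). When LDL in mouse 2 was left out, Cd36 passed in the fit with no block (log2 fold change 1.72, limma, adjusted p = 0.0433). In that setting 1179 of all 18459 genes tested passed as higher, against 162 with all libraries. Cd36 is also made by adipocytes, endothelium and macrophages. The 5 adipocyte markers summed to 7.53 to 9.76 with LDL and 4.97 to 7.33 with PBS, with Adipoq at 0 throughout. Each of these markers had at most 4 reads in a library, so the small gap between the treatments rests on a few reads and shows no difference. The sums of endothelial and leukocyte markers overlapped at 16.4 to 40.2 against 19.5 to 34.7 and at 229 to 295 against 225 to 301. Their part in the Cd36 counts was not tested.

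Slc27a2 codes for FATP2, a very long-chain acyl-CoA synthetase of the endoplasmic reticulum and peroxisome (chr2:126394327-126430166, plus strand). Its normalized counts were 690.3, 1823 and 859 with LDL and 1194, 1556 and 1262 with PBS. LDL-treated organoids of mice 1 and 3 were the lowest of the 6 libraries and those of mouse 2 the highest. LDL over PBS was 0.578, 1.17 and 0.681, so that mouse 2 differed in direction from the others, and the log2 fold change of -0.37 (SE 0.32) passed neither without the block (limma, adjusted p = 0.584) nor with it (limma, adjusted p = 0.196). When LDL in mouse 2 was left out, Slc27a2 passed as lower with a log2 fold change of -0.79 (limma, adjusted p = 0.0091). In that setting 1133 of all 18459 genes tested passed as lower, against 73 with all 6 libraries. Slc27a1 codes for FATP1, known from muscle and fat (chr8:72021095-72041866, plus strand), and had 338, 423 and 401 normalized counts with LDL against 489, 375 and 490.1 with PBS. The groups overlapped, mouse 2 was again the mouse that was higher with LDL, and the log2 fold change was -0.22 (SE 0.15, limma, adjusted p = 0.478, and 0.348 with the block). Exons of other genes on the opposite strand overlap all 3 transporters, by 116 bases of Nxnl1 for Slc27a1, 452 of Gm75181 for Slc27a2 and 843 of Gm75196 for Slc27a4. Gm65491 shares 125 exon bases with Fabp5 in the same way. Nxnl1 had a mean of 2.33 normalized counts, and the 3 genes named Gm were not analysed here.

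Of the 8 tested genes, 1 passed as higher (Fabp1) and 0 as lower with no block, where 0.878% of all genes tested passed as higher and 0.395% as lower. An unadjusted p under 0.05 in limma was reached by 19.7% of all genes tested and by 4 of the 8, namely Fabp1, Cd36, Slc27a4 and, as the lower gene, Fabp5, and the count models edgeR and DESeq2 called 0 of the 8 as lower. With the mouse as a block, Fabp1, Fabp2, Cd36 and Slc27a4 passed as higher and 0 as lower, against 5.68% and 3.46% of all genes. LDL-treated libraries all lay above PBS-treated libraries for 3 of the 8 (11.9% of all genes) and all below for 1 (12.3%). LDL exceeded PBS within all 3 mice for 4 of the 8 (24.2%) and was below PBS in all 3 mice for 1 (26.8%). The median log2 fold change of the 8 was 0.37, and that of all genes tested was -0.02. Leaving out both libraries of mouse 3 gave 0 calls in limma with no block among the 8 and among all genes, of which 1272 had an unadjusted p under 0.05. The log2 fold changes were then 0.65 for Fabp2, 1.78 for Cd36, 0.69 for Slc27a4, -0.51 for Fabp5, -0.28 for Slc27a2, -0.18 for Slc27a1 and 0.07 for Dbi, each with the sign it had in all 3 mice together.

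**Figure D2:**
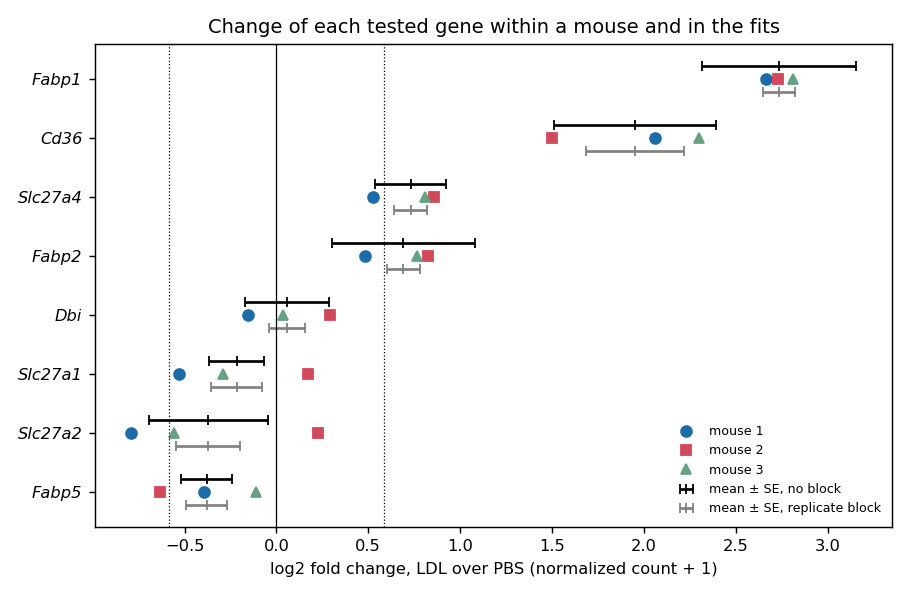
Log2 fold change of LDL over PBS (horizontal axis, on normalized counts plus 1) for the 8 tested genes. Symbols are the 3 mice, black bars the mean ± SE of the fit with no block and grey bars that with the mouse as a block, and dotted lines mark a 1.5-fold change. Fabp1 and Cd36 lie to the right of the 1.5-fold line in every mouse, and the grey bars are shorter than the black bars for all 8 genes.

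Levels were compared between genes as normalized counts per kilobase of the canonical transcript. With PBS the order from high to low was Fabp1 at 11708 ± 6019, Dbi at 9035 ± 1547, Fabp2 at 3608 ± 1555, Fabp5 at 733 ± 30.6, Slc27a2 at 458 ± 65.9, Slc27a4 at 141 ± 22.1, Slc27a1 at 84.1 ± 12.3, Cd36 at 4.48 ± 2.88 and Fabp4 at 1.21 ± 1.05 (SD, n = 3 mice each). With PBS the gap between Fabp1 and Dbi was smaller than the SD of Fabp1, so their order was not resolved, and every other gap was larger than the SDs of the genes beside it. With LDL, Fabp1 stood at 78202 ± 40039.9 and Dbi at 9647 ± 3172. Fabp2 followed at 6006 ± 3154. Next came Fabp5 at 568 ± 100.2, Slc27a2 at 385 ± 209.5 and Slc27a4 at 237 ± 61.1. The gaps of Slc27a2 to Fabp5 and to Slc27a4 were smaller than its SD, so its place among them was not resolved by the means. Within a library, Fabp5 and Slc27a2 both lay above Slc27a4 in all 3 mice, and Slc27a2 lay above Fabp5 in mouse 2 only. Below them were Slc27a1 at 72.1 ± 8.21, Cd36 at 16.8 ± 5.42 and Fabp4 at 0.897 ± 1.55. Cd36 thus stood lowest of the 8 tested genes in level under both treatments and second in log2 fold change, while Fabp1 stood first in log2 fold change and, with LDL, in level.

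Mouse 2 had the highest level of 6 of the 8 tested genes under both treatments, all but Fabp5 and Slc27a1, where 19.6% of all genes tested had this order. Fabp1 in mouse 2 was 2.22 times the mean of the other mice with LDL and 2.25 times with PBS, and for Fabp2 these ratios were 2.27 and 1.99. Cd36 stood at 1.62 and 2.77, Slc27a2 at 2.35 and 1.27, Dbi at 1.66 and 1.31, and Slc27a4 at 1.47 and 1.30. Fabp5 stood at 0.742 and 0.966 and Slc27a1 at 1.15 and 0.767. Among 12 absorptive enterocyte markers, 10 were highest in mouse 2 under both treatments, with Lct, the lactase gene, at 5.88 with LDL and 3.08 with PBS, and the part of enterocyte content in the levels of the fatty acid genes was not tested.

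**Figure D3:**
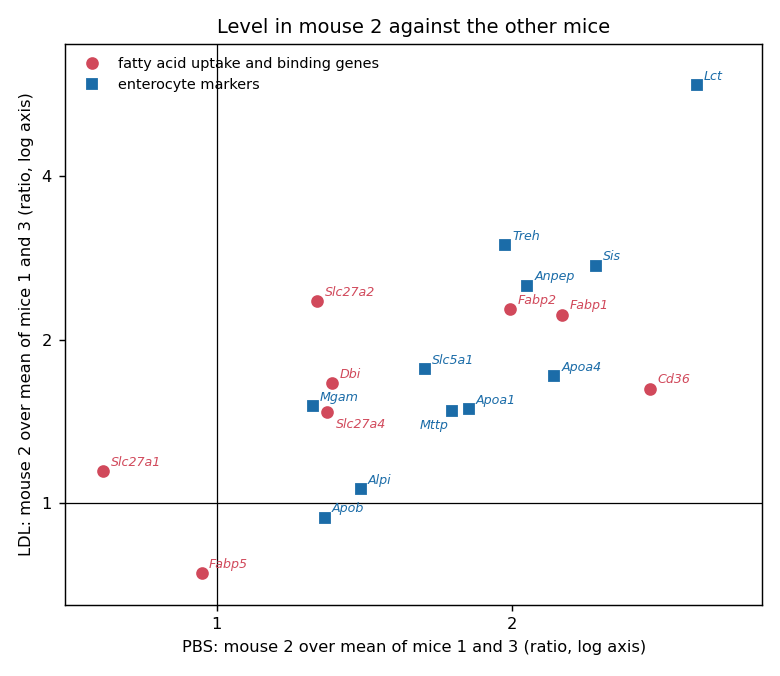
Level in mouse 2 divided by the mean of mice 1 and 3, with PBS (horizontal axis) and with LDL (vertical axis), both without a unit and on log axes. Circles are the 8 tested fatty acid genes and squares absorptive enterocyte markers, and lines mark a ratio of 1. Fabp1 and Fabp2 lie near enterocyte markers such as Anpep, at about 2 on both axes, whereas Fabp5 lies below 1 on both.

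The enterocyte markers lay on both sides between the treatments. Of the 12, 5 had a higher and 7 a lower mean log2 level with LDL, with a median log2 fold change of -0.20. Alpi, the intestinal alkaline phosphatase, was the only one that passed with no block, at a log2 fold change of 2.13 (SE 0.22, limma, adjusted p = 0.0083). With the mouse as a block Alpi, Apoa4, Apob and Mttp passed as higher, and Lct was among the 2 that passed as lower. Of all genes tested, 0.878% passed as higher with no block, and with the block 5.68% passed as higher and 3.46% as lower. Ratios within a library remove what is common to both genes, and were chosen after the values were seen, so they carry no test. Fabp1 over Fabp2 was 7.59, 7.52 and 7.80 in the LDL-treated and 1.67, 2.01 and 1.89 in the PBS-treated libraries of mice 1 to 3, a spread of 7.64 ± 0.14 and 1.86 ± 0.18 (SD, n = 3 mice each). The high level of mouse 2 was thus common to both genes. Fabp1 over the sum of the 12 enterocyte markers was 0.314, 0.558 and 0.437 with LDL and 0.0573, 0.0916 and 0.0747 with PBS, also without overlap.

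Slc27a4 over Fabp2 was nearly the same under both treatments within each mouse. It was 0.334 with LDL and 0.324 with PBS in mouse 1, 0.213 and 0.208 in mouse 2, and 0.326 and 0.317 in mouse 3. Slc27a2 over Fabp2 was 0.196, 0.197 and 0.186 with LDL and 0.474, 0.299 and 0.465 with PBS, with no overlap. Cd36 over Fabp2 was 0.0118, 0.00855 and 0.0121 with LDL and 0.00365, 0.00525 and 0.00390 with PBS, also with no overlap. The mice thus lay close together in the Slc27a2 ratio with LDL and further apart with PBS, and in the Slc27a4 ratio mouse 2 stood below the others under both treatments.

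**Figure D4:**
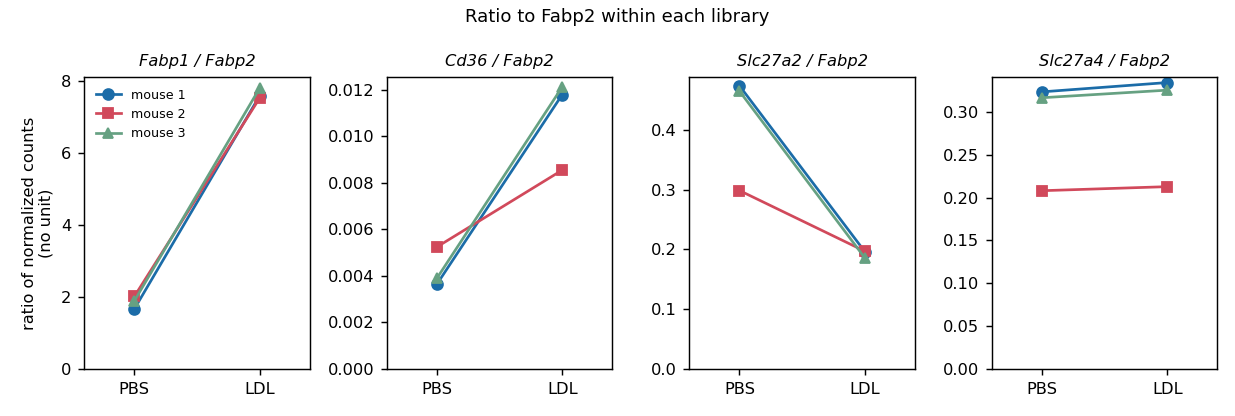
Normalized counts of Fabp1, Cd36, Slc27a2 and Slc27a4 divided by those of Fabp2 in the same library (vertical axes, no unit, linear from 0), under PBS and LDL. Points are libraries and lines join those of a mouse. The ratio of Fabp1 goes from 1.67 to 2.01 with PBS to 7.52 to 7.80 with LDL, and the lines of Slc27a4 are nearly flat.

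Profiles over the 6 libraries were compared by the root mean square difference of log2 values after each gene's mean was removed, where 0 is the same profile, among 11939 genes with a mean of at least 100. Nearest to Fabp1 were Reg1 (0.418), a secreted regenerating protein, Acaa1b (0.430), a peroxisomal thiolase, and Creb3l3 (0.491), a transcription factor of liver and intestine. Reg1 had 150, 798 and 376 normalized counts with LDL and 42.9, 63.4 and 55.4 with PBS. Nearest to Cd36 were 2010003K11Rik (0.292), Rab30 (0.307) and again Creb3l3 (0.313), which had 1065, 1742 and 1441 normalized counts with LDL and 304, 430 and 310 with PBS. Among the 8 genes themselves the nearest were Fabp5 and Slc27a1 (0.253), Slc27a2 and Dbi (0.274), and Fabp2 and Slc27a4 (0.297), Fabp1 and Cd36 differed by 0.428, and the farthest were Fabp1 and Fabp5 (1.70). All these values share the same 6 libraries and hold the treatment difference itself.

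The wider families, listed by membership, held 29 further genes, of which 15 were tested. Of these, 2 passed as higher with no block and 0 as lower in limma, against 0.878% and 0.395% of all genes tested. In the same fit 7 of the 15 had an unadjusted p under 0.05 (19.7% of all genes). With the mouse as a block 5 passed as higher and 1 as lower, against 5.68% and 3.46% of all genes. The median log2 fold change of the 15 was 0.07, and that of all genes tested was -0.02. Both that passed with no block belong to the 9 other uptake proteins. Mfsd2a, a transporter of lysophospholipids that carry polyunsaturated fatty acids, had 659, 592 and 678 normalized counts with LDL and 400.2, 358 and 397 with PBS (log2 fold change 0.74, SE 0.11, limma, adjusted p = 0.0241). Scarb2, a lysosomal membrane protein related to CD36, had 4491, 3416 and 3979 with LDL and 2246, 2407 and 2215 with PBS (0.78, SE 0.11, limma, adjusted p = 0.0241). Neither was highest in mouse 2 under both treatments. Cav2, a caveolin, had 133, 23.6 and 76.1 with LDL and 15.3, 3.73 and 8.14 with PBS, the last values resting on 15, 3 and 10 reads, and passed with the block (2.83, SE 0.28, limma, adjusted p = 0.00087).

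Among 11 other intracellular lipid binding proteins, 3 were tested. Rbp2, which binds retinol in the enterocyte, had 1711, 3602 and 2559.5 normalized counts with LDL and 851, 1424 and 953 with PBS. Its values did not overlap between treatments, and in limma it passed with the block (log2 fold change 1.26, adjusted p = 0.0003) and not without it (adjusted p = 0.0780), while DESeq2 with no block called it (adjusted p = 0.00017). Rbp7, another cellular retinol carrier, had 43.9, 109 and 43.5 with LDL and 76.6, 175 and 96.1 with PBS and passed as lower with the block (-0.86, limma, adjusted p = 0.0162). The other 8 had means of at most 8.73 normalized counts, and Fabp9, Pmp2 and Crabp1 had no read in any library. Of the 3 other SLC27 transporters 2 were tested and of the 6 acyl-CoA binding domain proteins 4 were tested, and 0 of these passed in either fit.

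**Figure D5:**
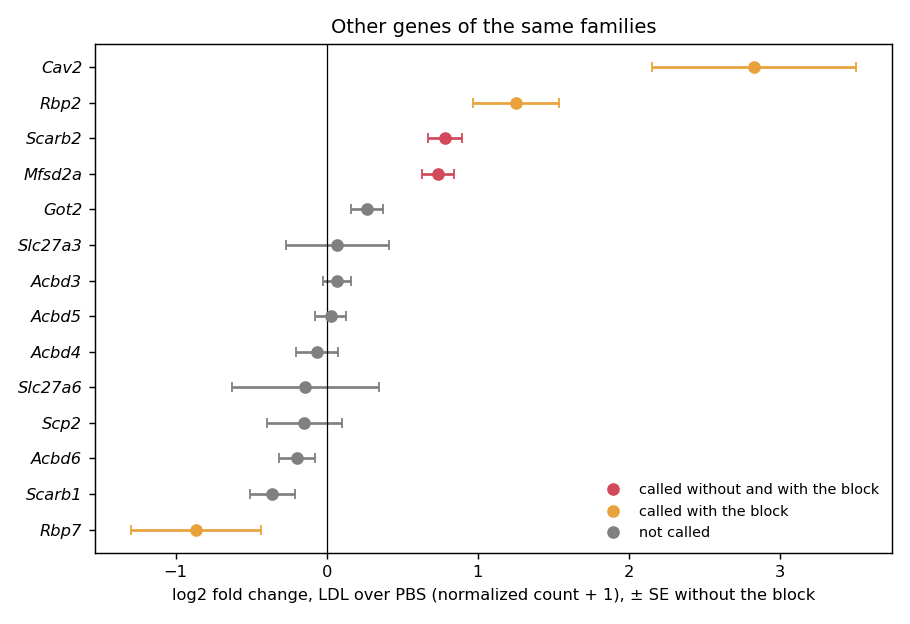
Log2 fold change of LDL over PBS (horizontal axis, on normalized counts plus 1, ± SE of the fit with no block) for tested genes of the wider families. Red genes passed with and without the mouse as a block, orange genes with the block, and grey genes in neither fit. Mfsd2a and Scarb2 have short error bars beside Cav2 and Rbp2, whose changes are larger.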

How the data were processed

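RNA-Seq of organoids from 3 mice under LDL and PBS (6 libraries) was analyzed. The deposited signal values are normalized counts: per the labels, reads were demultiplexed with bcl2fastq 2.20, aligned to GRCm39 with STAR, counted by the authors per gene (featureCounts) and, as the values show, divided by 1 size factor per library, with DESeq2 among the named tools. The kit keeps strand, but the strand setting and the annotation version were not given in the sources used here. Dividing by the step of each library returned whole reads (within 0.01 read) for 100% of values, and on these reads DESeq2 called 846 genes higher and 348 lower and edgeR 186 and 70. Of 55416 identifiers, 54749 were found in GENCODE M39, which gave names and positions.

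Genes with a mean of at least 10 were tested with limma (eBayes with trend, two-sided) on log2 of normalized counts plus a pseudocount of 1, so fold changes of low genes are understated. P-values were adjusted by the Benjamini-Hochberg method over 18459 genes, and genes passed at an adjusted p under 0.05 and over 1.5-fold. The fit had no pairing term, as the methods name none for the DESeq2 step. The labels give the LDL and PBS library of a number the same animal, and after removal of the treatment means the r across genes between the LDL and PBS library was 0.484 in mouse 1, 0.421 in mouse 2 and 0.462 in mouse 3, so the fit with the mouse as a replicate block is given beside each gene whose call it changed. With 3 mice per treatment an exact permutation test of 1 gene cannot go below p = 0.1.

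The members and lists were chosen with earlier results of these data known. The text names all members, the wider family genes that passed with or without the block, cell type markers, and the nearest profiles of Fabp1 and Cd36; Nxnl1, other overlapping genes and pseudogenes were named from the annotation. Values of some genes that belong to these lists are not reported here and are not plotted. Promoter windows came from the GRCm39 genome, and near copies from a BLAST 2.17.0 search at 95% identity over at least 200 bases. The tools were limma 3.58.1, DESeq2 1.42.0 and edgeR 4.0.16 in R 4.3.3, Python 3.11.15, pandas 2.3.3 and numpy 2.4.6, and the fits were tested on simulated data. Other pseudocounts, filters, scalings, count models, the block and leaving out libraries were alternatives.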

Additional observations from a re-analysis of the deposited data

How the results depend on the processing

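Over 18 settings, the reported one included (17 for Cd36, which a mean of at least 50 removed), the log2 fold changes kept their sign for 7 of the 8 genes, with ranges of 2.35 to 3.13 for Fabp1, 0.29 to 1.02 for Fabp2, -0.51 to -0.24 for Fabp5, 1.68 to 2.41 for Cd36, -0.34 to -0.12 for Slc27a1, -0.79 to -0.09 for Slc27a2 and 0.54 to 0.91 for Slc27a4. Dbi ranged from -0.19 to 0.27 and turned negative when LDL in mouse 2 (-0.19) or PBS in mouse 1 (-0.05) was left out. Leaving out 1 library gave 0 to 2 members called higher and 0 to 1 called lower, 0 to 5 and 0 to 1 wider family genes, and 18 to 1179 and 2 to 1133 of all genes. Over all genes, most calls came when LDL in mouse 2 was left out and fewest when LDL in mouse 3 was left out.

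With the replicate block, limma called 4 members higher, 5 wider family genes higher and 1 lower, and 1048 genes higher and 639 lower, against 162 and 73 with no block. No other call of the 8 genes changed with the block. DESeq2 called 3 members, 5 wider family genes, and 846 and 348 genes with no block, and 4 members, 5 and 1 family genes, and 981 and 511 genes with the replicate block. With TMM and the replicate block, edgeR called 4 members, 5 and 1 family genes, and 1171 and 588 genes. With no filter on the mean, 2 members (Fabp1 and Cd36), 4 family genes, and 506 and 245 genes were called. Leaving out both libraries of mouse 3 gave 0 calls in each list and direction. The cause was not tested for any of these, other than that this fit had 2 mice. Depth limits Fabp4, at 0 to 3 reads, and Cd36, at 9 to 87 reads per library.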
